A study of Mus musculus with 4 samples.

Results

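The 5 genes described here code for RNA-binding proteins that shorten the life of inflammatory mRNAs: Zc3h12a and Zc3h12c of the Regnase family, and Zfp36, Zfp36l1 and Zfp36l2 of the tristetraprolin family. The probes were taken as every non-control spot whose gene name on the array is one of these 5 symbols. This gave 7 probes of 41174 on the array, for 5 genes of 27962. The genes were picked with their response on these same arrays already known, so their ratios are a description and carry no test.

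Mucosal mast cells of the mouse, differentiated in vitro, were compared with and without stimulation by IL-18, an inflammatory cytokine. Each of 4 biological replicates was 1 two-colour Agilent array, with the stimulated RNA in Cy5 and the unstimulated RNA of its own control in Cy3. The labels used here state neither the mouse strain nor how much IL-18 was given or for how long. All arrays had the same dye orientation, so an effect of IL-18 and an effect of the dye on a probe cannot be told apart, and in a bulk sample fewer cells with a transcript and less of it per cell cannot be told apart either.

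Inflammatory mRNAs such as those of cytokines are short-lived because proteins bind elements in their untranslated tails. Regnase-1, the product of Zc3h12a, is an endoribonuclease that cuts stem-loops in mRNAs such as that of Il6, and Zc3h12c codes for the related Regnase-3. Tristetraprolin, the product of Zfp36, and its relatives from Zfp36l1 and Zfp36l2 bind AU-rich elements and bring in the CCR4-NOT deadenylase, which removes the poly(A) tail. Genes of both families are known as targets of inflammatory signalling, and their products damp the response that induced them.

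The 250 bases before a start site are shown for a member of each pattern described below, from the RefSeq promoter table of build GRCm38.p6, which held 4 of the 5 members (Zfp36l2 was not matched). All of them lie on the minus strand and are written 5′ to 3′. Capitals mark matches on either strand to the Sp1 box GGGCGG, the CArG box bound by serum response factor, the AP-1 site TGANTCA and the TATA box TATAAA.
Zc3h12a promoter, chr4:125127882-125128131: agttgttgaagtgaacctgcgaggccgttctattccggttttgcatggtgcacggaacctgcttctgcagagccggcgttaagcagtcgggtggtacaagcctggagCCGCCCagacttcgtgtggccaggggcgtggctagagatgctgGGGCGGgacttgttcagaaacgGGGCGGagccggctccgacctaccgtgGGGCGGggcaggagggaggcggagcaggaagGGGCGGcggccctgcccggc
Zfp36 promoter, chr7:28379229-28379478: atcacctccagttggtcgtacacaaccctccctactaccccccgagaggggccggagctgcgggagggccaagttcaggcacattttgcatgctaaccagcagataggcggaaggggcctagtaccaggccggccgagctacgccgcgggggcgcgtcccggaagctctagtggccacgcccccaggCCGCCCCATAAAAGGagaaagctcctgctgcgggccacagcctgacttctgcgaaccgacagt
Zfp36l1 promoter, chr12:80113014-80113263: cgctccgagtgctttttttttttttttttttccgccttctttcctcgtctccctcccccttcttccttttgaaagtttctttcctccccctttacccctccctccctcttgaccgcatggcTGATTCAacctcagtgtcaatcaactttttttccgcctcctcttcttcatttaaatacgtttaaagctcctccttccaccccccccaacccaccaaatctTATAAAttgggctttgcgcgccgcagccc
The Zc3h12a window held 5 Sp1 boxes, a motif found in 32.7% of the 32851 promoter windows of this length in the table. The Zfp36 window held the CArG box CCATAAAAGG, which begins 58 bases before the start site and overlaps the only Sp1 box there by its first base. A CArG box was found in 1.47% of all windows. In the Zfp36l1 window the AP-1 match TGATTCA begins 129 bases and the TATA box 29 bases before the start, motifs held by 6.75% and 12.4% of all windows. The NF-kB consensus, held by 3.9% of all windows, did not match in any of the 5 windows of the 4 genes. These matches describe the letters only, and the arrays measured no binding.

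Each array carried 43379 gene spots, of which 49.9% to 54.0% gave a Cy3 signal well above background and 57.9% to 62.7% a Cy5 signal. Log2 ratios of the tested probes correlated between arrays with Pearson's r from 0.743 to 0.906, across probes, which are not independent. The labelled cell type was borne out: 8 of 8 mast cell markers, among them Kit, Fcer1a, Cpa3, Mcpt1 and Mcpt2, were well above background in both channels on all 4 arrays. Markers of other cells were measured too, and sums over lists of different probes are not set against each other. The summed normalized signal (offset of 50 per probe included) of 7 macrophage markers, 6 of them above background, was 2828 to 2956 in Cy3 and 2753 to 3111 in Cy5. For the basophil markers Mcpt8 and Prss34 it was 873 to 1818 in Cy3 and 1134 to 2258 in Cy5. Of 3 neutrophil markers, Ngp and Camp were not well above background in either channel on any array, while Ltf was so on 1 array in Cy3 and 3 in Cy5. Of 5 T cell, 4 B cell and 3 fibroblast markers, 4, 3 and 2 were well above background in Cy5 on all 4 arrays. In Cy3 1 marker of each list was so. Of 2 eosinophil markers 1 was so in both channels. The part of other cells in the values below was not tested.

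Zc3h12a was the member with the largest ratio. Its spot, probe A_51_P297925, had a mean Cy3 brightness of 171, 162, 145 and 130 units in the unstimulated cells of replicates 1 to 4, and a Cy5 brightness of 931, 737, 752 and 756 in the stimulated cells. Before dye correction the stimulated channel was brighter on every array and the channels did not overlap. The same held for Zc3h12c, the brighter Zfp36 probe and the Zfp36l1 probes, so nothing about IL-18 is read from it. After background correction and dye normalization, the Zc3h12a log2 ratio of stimulated over unstimulated was 1.73, 1.64, 1.67 and 1.88. The mean was 1.73 ± 0.11 (SD, n = 4) or 3.32-fold. The whole range over the 4 arrays was thus 0.24, small beside the ratio itself. Of the 16970 genes tested on the array, 99.96% had a lower mean log2 ratio.

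The size of this ratio depended on how the background was taken, while its direction was the same under every alternative run. The correction adds 50 units to each channel, which pulls ratios of dim spots toward 0, and the unstimulated Zc3h12a spot stood only 58.5 to 96.8 units above the background the scanner software subtracted. The log10 ratio of that software, turned to log2, was 2.21, 2.22, 2.23 and 2.68, a mean of 2.34 ± 0.23 (SD, n = 4) or 5.05-fold. When the background model was fitted on all spots, the mean was 1.49 ± 0.49, with replicate 1 the lowest. That fit included 10 spots over the 4 arrays, 7 of them on array 1, with a local background over 5 times their array's median. Leaving those spots out was decided after the values of the members had been seen.

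**Figure D1:**
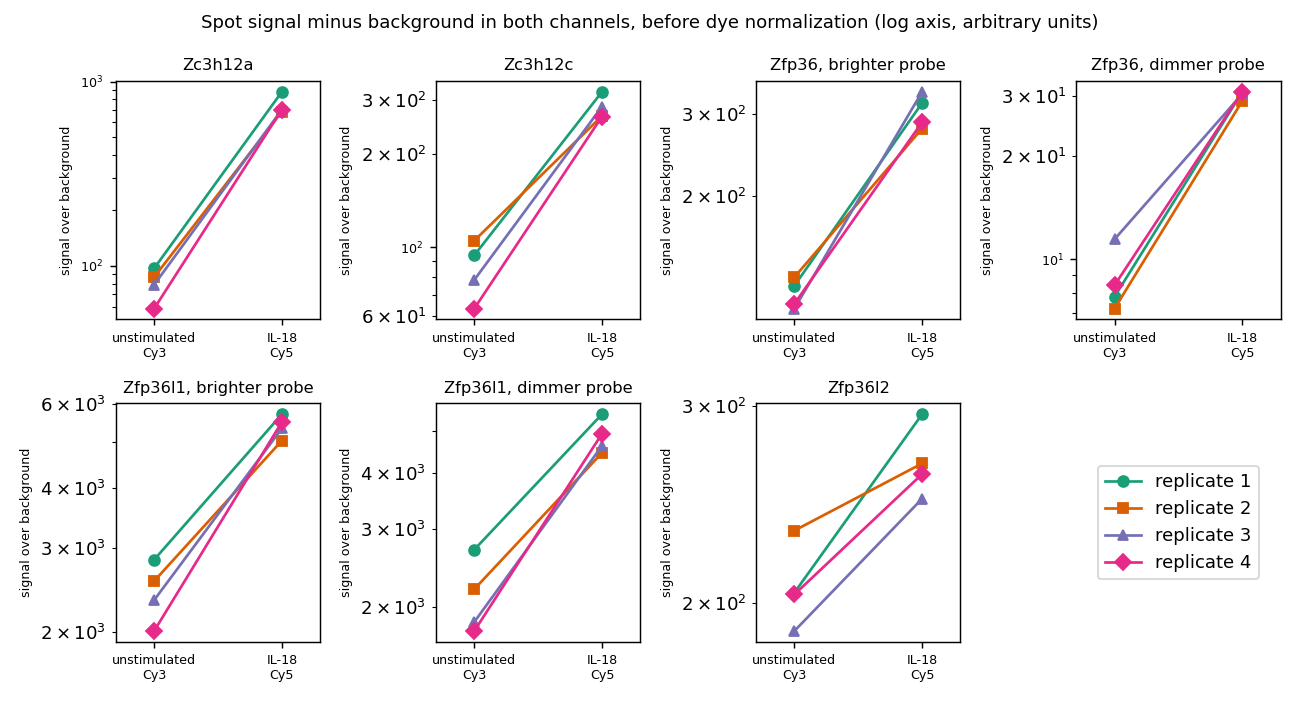
Spot brightness minus the software's background in the unstimulated (Cy3) and stimulated (Cy5) channels for each of the 7 member probes, in arbitrary units on a log axis whose range differs between panels; a line joins the channels of 1 array, before any dye correction. Zc3h12a stood at 58.5 to 96.8 units in Cy3 and 686 to 879 in Cy5. Zfp36l2 stood at 189 to 232 in Cy3 and 248 to 295 in Cy5. Slopes are not comparable between panels.

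Zc3h12c moved the same way by less. Its only probe, A_52_P763562, read 170, 181, 147 and 138 units in Cy3 and 373, 320, 336 and 321 in Cy5. The normalized log2 ratio was 0.54, 0.38, 0.62 and 0.65, a mean of 0.55 ± 0.12 (SD, n = 4) or 1.46-fold. All 4 arrays lay above 0, with replicate 2 the lowest. Within each array Zc3h12a exceeded Zc3h12c by 1.05 to 1.26, a mean difference of log2 ratios of 1.18 ± 0.10 (SD, n = 4), so the genes of the Regnase family differed in the size of the ratio by far more than either varied between replicates. In the software's ratios Zc3h12c stood at 0.85 ± 0.24.

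Zfp36, the gene of tristetraprolin, had a small ratio above 0 at its brighter probe. Probe A_51_P158538 read 199, 207, 186 and 189 units in Cy3 and 369, 330, 385 and 340 in Cy5. Its log2 ratio was 0.27, 0.20, 0.43 and 0.24, a mean of 0.29 ± 0.10 (SD, n = 4) or 1.22-fold. Every array was above 0 and replicate 3 was the highest. The other probe, A_52_P80944, was not well above background in Cy3 on any array (82 to 84 units) but was so in Cy5 on all 4. For such a probe the fold is a bound. The stimulated mean was set against the lowest Cy3 signal that counts as well above background on each array. Where the probe's own Cy3 signal was higher, that signal was used instead. The bound came to at least 1.04-fold. The measured log2 ratio of this probe was 0.12 ± 0.08 (SD, n = 4), with normalized log2 means of 6.52 in Cy5 and 6.40 in Cy3.

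Zfp36l1 had no ratio that stood clear of its spread. Its probe A_51_P235798 read 2909, 2633, 2402 and 2085 units in Cy3 and 5757, 5077, 5380 and 5546 in Cy5. The log2 ratio was -0.14, 0.02, 0.11 and 0.29, with a mean of 0.07 ± 0.18 (SD, n = 4). Replicate 1 lay below 0 and the other 3 above it. The other probe, A_51_P235801, ran alongside at -0.13, 0.08, 0.25 and 0.34, a mean of 0.14 ± 0.21. The probes never differed by more than 0.15 on an array, less than the 0.44 by which the first varied between arrays, so the replicates differed at both probes alike. Arrays 1 and 2 shared a slide, as did arrays 3 and 4, and on the first slide the mean at the first probe was -0.06; without replicate 4 it was -0.0046.

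Zfp36l2 was the member with a ratio below 0. Probe A_51_P406265 read 278, 307, 258 and 277 units in Cy3 and 348, 320, 300 and 317 in Cy5. Before dye correction its stimulated channel was therefore slightly the brighter on all 4 arrays. After loess, which removes the channel difference typical of spots of the same brightness, the log2 ratio was -0.33, -0.45, -0.41 and -0.46. The mean was -0.41 ± 0.06 (SD, n = 4), or 1.33-fold lower in stimulated cells. All arrays lay below 0 and the range between them, 0.13, was the smallest of the 7 probes.

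**Figure D2:**
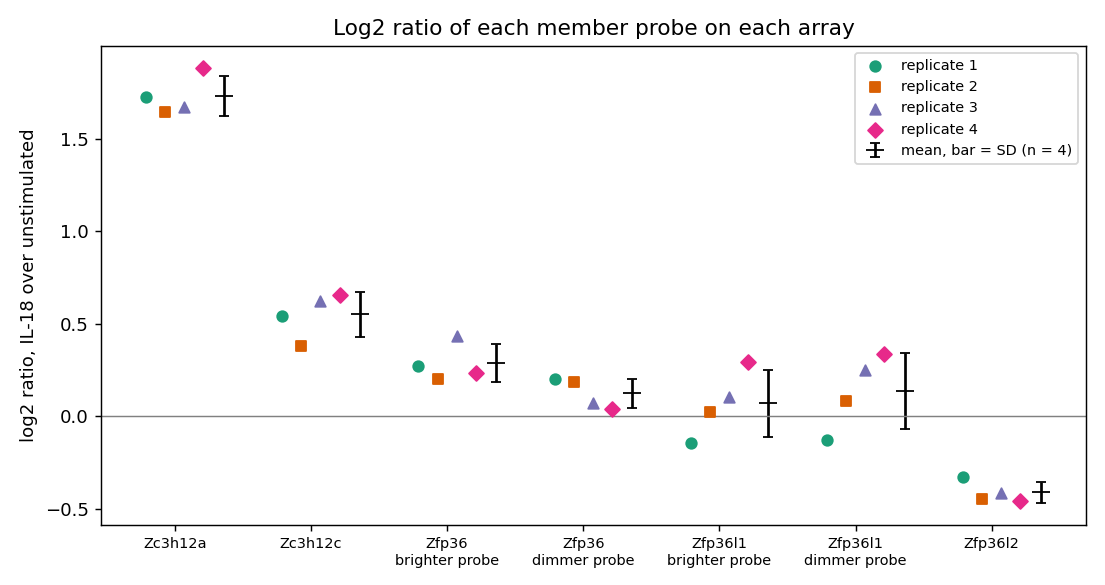
Normalized log2 ratio of stimulated over unstimulated cells on each of the 4 arrays (coloured symbols) for every member probe, with the mean and SD (black, n = 4). Zc3h12a lies near 1.73, Zc3h12c and the brighter Zfp36 probe above 0 on all arrays, Zfp36l1 on both sides of 0 and Zfp36l2 below it.

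The tristetraprolin family thus did not move as a block. Within an array Zfp36 exceeded Zfp36l2 by 0.60 to 0.84, a mean of 0.70 ± 0.11 (SD, n = 4). Zfp36l1 exceeded Zfp36l2 on all 4 arrays too, by 0.48 ± 0.23. Zfp36 exceeded Zfp36l1 on 3 of 4 arrays by 0.22 ± 0.21, about as much as that difference varied. The order of their means was reversed under the median centring described below. All these values are differences of ratios, since the brightness of 1 gene's probe is not comparable with that of another's.

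In the test over all probes (limma, Benjamini-Hochberg adjusted p under 0.05), 3 of the 5 genes were called higher, Zc3h12a, Zc3h12c and Zfp36, where 26.2% of all tested genes were, and 1, Zfp36l2, was called lower, where 20.7% were. Since the genes were chosen from this contrast, nothing is read from those counts, nor from the 4 called in either direction beside 46.9% of all genes. Counted by probe, 3 of 7 were called higher and 1 lower, beside 24.1% higher and 24.1% lower over all tested probes. At its brighter probe a member was above 0 on all 4 arrays in 3 of 5 cases, against 35.2% of all genes. The signs of the smaller ratios rest on the dye correction. With each array only centred on its median, a channel difference that changes with brightness stays in, and the part of dye and of IL-18 in it was not tested. The median of all tested probes moved from 0.01 to 0.37 under this centring. Zc3h12a then stood at 2.14, Zc3h12c at 0.88, Zfp36 at 0.64, Zfp36l1 at 0.80 and was called higher, and Zfp36l2 at -0.025 and was no longer called. The order of Zc3h12a, Zc3h12c, Zfp36 and Zfp36l2 was kept, but Zfp36l1 moved from below Zfp36 to above it.

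**Figure D3:**
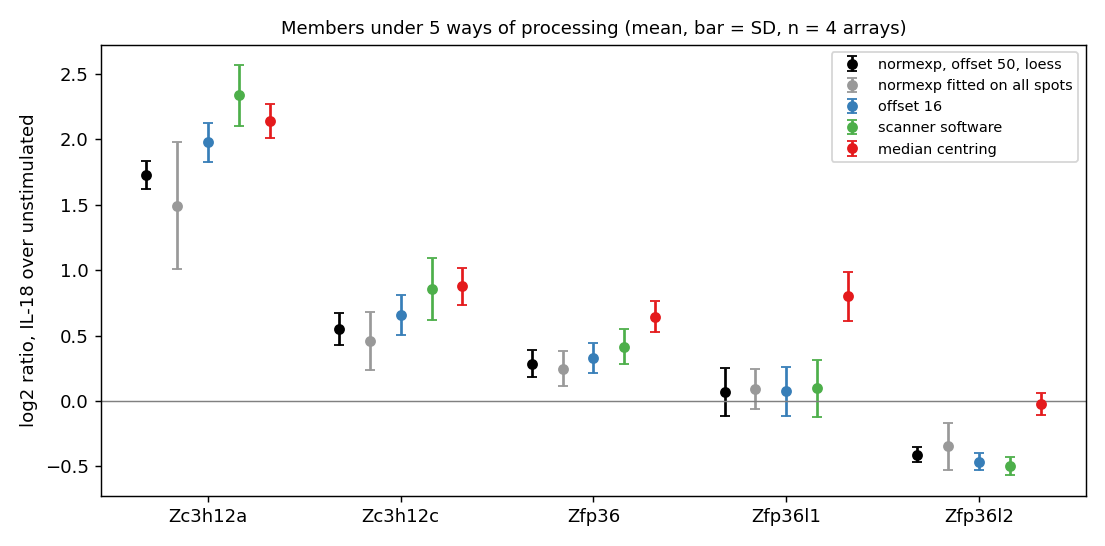
Mean log2 ratio and SD (n = 4 arrays) of each member at its brightest probe under 5 ways of correcting background and dye. Zc3h12a ranges from 1.49 to 2.34 and stays highest; under median centring (red) Zfp36l1 rises to 0.80 and Zfp36l2 reaches -0.025.

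The genes whose 4 ratios lay closest to those of each member, by Euclidean distance among 12491 genes, are given as a description. For Zc3h12a they were Traf1, an adaptor of TNF receptors, at 1.71, Nfkbiz, which codes for an inducible IkB protein, at 1.78, and the chemokine gene Ccl3 at 1.84. For Zc3h12c they were the potassium channel gene Kcnh6, Zswim6 and Son, at 0.56, 0.53 and 0.55. Zfp36 had Magohb, Hnrpa1 and Cep110 beside it, between 0.27 and 0.28. Beside Zfp36l1 stood Frmd4a, Myc and Cox7c, between 0.05 and 0.07, and beside Zfp36l2 Dnpep, Syt6 and Limk2, all at -0.41. Few genes had ratios as high as Zc3h12a, and the distance to its nearest neighbour, 0.30, was larger than that of any other member, the next being 0.09 for Zc3h12c.

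Most tested transcripts on a list of those cut by Regnase-1 were higher in the stimulated cells. The target and machinery lists were chosen with earlier results of these data known, so their counts and calls only describe these arrays. Of 18 listed, 12 were tested, 9 (75%) rose and 2 (16.7%) fell (limma, adjusted p under 0.05). Over all tested genes 26.2% rose and 20.7% fell, and the median log2 ratio was 0.41 in the list against 0.03. A gene could enter through the channel where it is high. With both channels required well above background on all 4 arrays, 8 were tested, 6 (75%) rose and 2 (25%) fell. Of all genes tested that way 27.3% rose and 24% fell. Il1b, an inflammatory cytokine, rose by 2.18 ± 0.18 (limma adjusted p = 3.01e-05), Nfkbiz by 1.78 ± 0.09 (2.44e-05) and Il6 by 0.67 ± 0.12 (0.000278), each on 4 of 4 arrays. The 2 that fell did so by little: Calcrl, a receptor gene, stood at -0.18 ± 0.03, with another probe called at 0.24 and its own call lost without replicate 2, and Nfkbid, an IkB gene, at -0.14 ± 0.04, a call lost without replicates 1, 2 or 3. Il6 by array was 0.53, 0.61, 0.82 and 0.71, all above 0 and all below Zc3h12a on the same array, as differences of ratio.

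Known targets of the tristetraprolin family, on a list chosen the same way, gave a similar count. Of 20 listed, 15 were tested, 11 (73.3%) rose and 0 fell by limma at an adjusted p under 0.05, with a median of 0.47. Over all tested genes 26.2% rose and 20.7% fell at that threshold. In the list 0 fell at an unadjusted limma p under 0.05 too. With both channels required, 11 were tested and 7 (63.6%) rose, beside 27.3% of all genes tested that way. Thus 4 of the rises had entered without a full set of detections in both channels. The tristetraprolin targets share 4 tested genes with the Regnase-1 list (Il1b, Csf2, Ptgs2 and Cxcl2). Ccl3 rose by 1.84 ± 0.20 (limma adjusted p = 5.39e-05) and Tnf, the classic tristetraprolin target, by 0.87 ± 0.17 (0.00022), with 0.95, 0.76, 1.05 and 0.70 on the 4 arrays. Il3, a growth factor of mast cells, was on the array but too dim to be tested. Both target lists kept rises in the majority without any 1 replicate, with 8 or 9 and 11 or 12 calls. Of all genes 15.7% to 28% were called higher in those fits. The arrays measure the level of an mRNA and not its decay.

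The rest of the decay machinery held rises and falls. Over 8 lists of 90 tested genes, 19 (21.1%) rose and 33 (36.7%) fell (limma, adjusted p under 0.05). Of all tested genes 26.2% rose and 20.7% fell, and the median log2 ratio was -0.087 in the lists against 0.031 for all genes. Under median centring 80 (88.9%) were higher and 4 (4.44%) lower, beside 73.6% and 3.91% of all genes, with a median of 0.63 against 0.44. Without replicate 2 the counts were 11 and 23 (12.2% and 25.6%), beside 15.7% and 14.1% of all genes. With the background fitted on all spots they were 19 and 23 (21.1% and 25.6%), beside 19.7% and 13.7% of all genes. Counts of the short lists moved more: without replicate 2 or 3 the falls dropped from 3 to 1 in the CCR4-NOT and in the other deadenylase list, and 1 AU-rich element binding gene was called higher in place of 2. These genes were brighter than most, with a median log2 brightness of 11.4 against 9.01. Of 68 list genes with several tested probes, 7 had probes called in both directions.

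**Figure D4:**
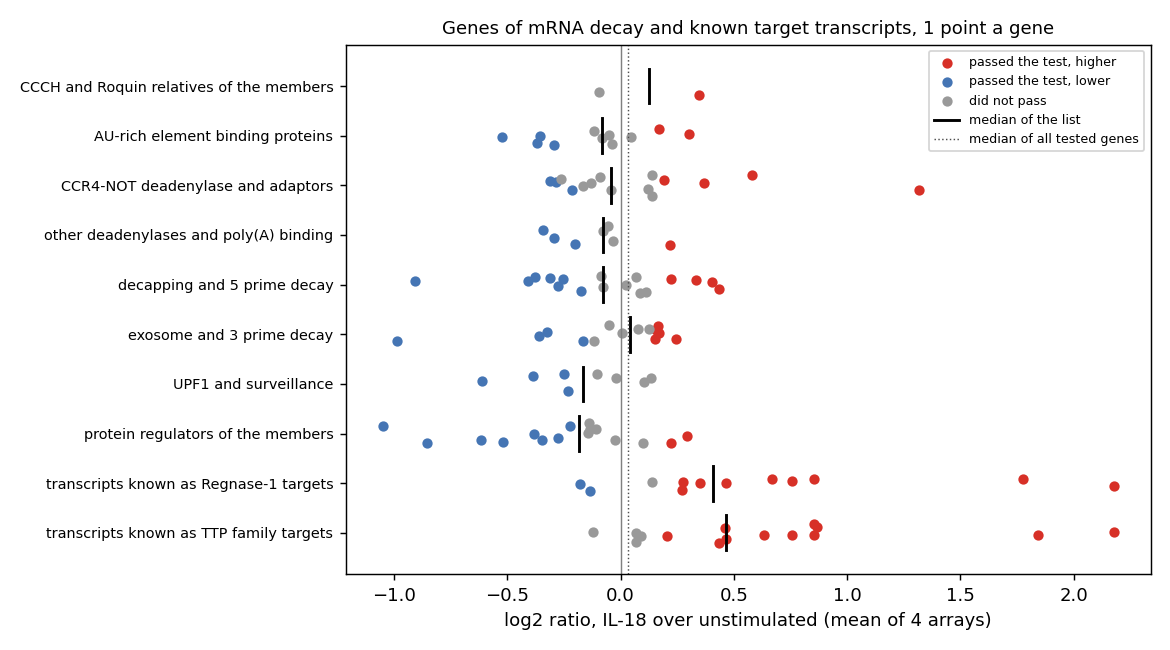
Mean log2 ratio over 4 arrays of each tested gene (1 point a gene, vertical scatter only for legibility) in the 10 lists, coloured by the limma call, with the median of each list (black bar) and of all tested genes (dotted, 0.031). The target lists at the bottom have medians of 0.41 and 0.47, and the machinery lists lie around 0.

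Of the members' relatives, Rc3h1, which codes for Roquin-1 and acts on many of the stem-loops that Regnase-1 cuts, had its brightest probe at 0.35 ± 0.11 (limma adjusted p = 0.00202, called higher) and a dimmer one at -0.22 (adjusted p = 0.025, called lower), so that its direction differed between probes. At the brightest probe the ratio was 0.26, 0.26, 0.37 and 0.49, above 0 on all 4 arrays. The other relative tested, Rc3h2, stood at -0.09 ± 0.22 and did not pass. Zc3h12d and Zfp36l3 were on the array but too dim to test.

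Among AU-rich element binding proteins 2 of 11 (18.2%) rose and 4 (36.4%) fell, beside 26.2% and 20.7% of all tested genes. Under median centring all 11 were higher, as were 73.6% of all genes. Elavl1 codes for HuR, which stabilizes mRNAs that tristetraprolin destabilizes. It stood at -0.29 ± 0.13 at its brightest probe (limma adjusted p = 0.00579), but its other probes were at -0.14 and 0.28, both called, so its direction differed between probes. Khsrp, a decay-promoting protein, stood at -0.52 ± 0.29, with another probe at -0.12 that did not pass, and Arid5a, which protects Il6 mRNA, at -0.37 ± 0.10, with its other probe at -0.77. Tial1 stood at 0.30 ± 0.21 (0.20 without replicate 4), with another probe called lower at -0.19. Tia1 stood at 0.17 ± 0.10, a call lost without replicate 2 or 3, and of its other probes 1 was called lower at -0.49 and 1 higher at 0.25. Khsrp, Arid5a and Elavl1 turned above 0 under median centring.

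The deadenylase that tristetraprolin recruits had members on both sides of 0. Of 15 genes in the CCR4-NOT list, 4 (26.7%) rose and 3 (20%) fell, near the 26.2% and 20.7% of all tested genes. Under median centring all 15 were higher, as were 73.6% of all genes. The largest rises belonged to adaptors of the complex, the antiproliferative genes Btg2 and Btg1. Btg2 stood at 1.51, 1.26, 1.48 and 1.02 on the 4 arrays, a mean of 1.32 ± 0.23 (limma adjusted p = 0.000137), and its 2 other probes were called higher too, at 0.37 and 0.56. Btg1 rose by 0.58 ± 0.19 (0.00098), with another probe at 0.08 that did not pass. Cnot1, the scaffold, stood at 0.14 ± 0.12 and did not pass. The catalytic subunit gene Cnot8 stood at -0.31 ± 0.23, and Cnot6l, the gene of another, at -0.28 ± 0.16. Both were called lower, Cnot8 not without replicate 3 and Cnot6l not without replicate 2, and both lay above 0 under median centring.

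Among the other deadenylases and poly(A)-binding proteins 1 of 7 (14.3%) rose and 3 (42.9%) fell, beside 26.2% and 20.7% of all tested genes. Median centring gave 7 higher, beside 73.6% of all genes. Paip2, an inhibitor of poly(A)-binding protein, stood at 0.22 ± 0.14, a call lost without replicate 1 or 2, with another probe at 0.02. Pabpc1 stood at -0.29 ± 0.10 at its brightest probe and at 0.26 at another, both called. Parn, a deadenylase, stood at -0.34 ± 0.31, a call lost without replicate 2 or 3. It stood at -0.19 without replicate 4, and its other probe, at -0.06, did not pass.

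In the decapping list 4 of 17 genes (23.5%) rose and 7 (41.2%) fell, beside 26.2% and 20.7% of all tested genes. Under median centring the counts were 14 (82.4%) and 1 (5.88%), beside 73.6% and 3.91% of all genes. Ddx6, a helicase that links deadenylation to decapping, fell by 0.91 ± 0.20 (limma adjusted p = 0.000288), with -1.09, -1.01, -0.62 and -0.90 on the arrays. Edc4, an enhancer of decapping, stood at -0.41 ± 0.08 and turned above 0 under median centring. Lsm3 stood at 0.44 ± 0.13, and Dcp2, the decapping enzyme, at 0.40 ± 0.09 with another probe at -0.14 that did not pass.

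The exosome list, the machinery of decay from the tail end, had 5 of 14 genes (35.7%) higher and 4 (28.6%) lower. The shares of all tested genes were 26.2% and 20.7%. Under median centring the counts were 13 (92.9%) and 1 (7.14%), beside 73.6% and 3.91% of all genes. Without replicate 1 or 2 only 1 gene was called higher, and without replicate 3, 2 were. Skiv2l, a helicase that feeds the exosome, fell by 0.99 ± 0.20 (limma adjusted p = 0.000219), and Exosc2 stood at -0.36 ± 0.11, above 0 under median centring. Exosc8 and Hbs1l stood at 0.24 ± 0.19 and 0.17 ± 0.08, calls lost without replicate 1, and without replicate 2 for Exosc8 and 3 for Hbs1l. Of the 3 other Hbs1l probes 1 was called higher at 0.39 and 1 lower at -0.31, so its direction differed between probes.

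Regnase-1 acts together with the helicase UPF1 on translated mRNAs. Of the 8 genes of UPF1 and its surveillance partners 0 rose and 4 (50%) fell by limma at an adjusted p under 0.05. The shares of all tested genes were 26.2% and 20.7%. At an unadjusted limma p under 0.05 the list counts were 1 and 5. Median centring gave 7 (87.5%) higher and 0 lower, beside 73.6% and 3.91% of all genes. Upf1 stood at -0.39 ± 0.10 and turned above 0 under that centring.

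Proteins that act on the members had 2 of 16 genes (12.5%) higher and 8 (50%) lower, beside 26.2% and 20.7% of all tested genes. Under median centring the counts were 11 (68.8%) and 2 (12.5%), beside 73.6% and 3.91% of all genes. Mapkapk2 codes for the kinase MK2, which phosphorylates and restrains tristetraprolin. It fell by 0.85 ± 0.27 (limma adjusted p = 0.000725), with another probe at -1.13, and at its brightest probe stood at -0.11 under median centring and was not called. Ywhaz, of the 14-3-3 proteins that bind phosphorylated tristetraprolin, fell by 1.05 ± 0.23 (0.000256), though another probe at -0.04 did not pass. Of genes that act on Regnase-1, Malt1, a protease that cleaves it, stood at 0.22 ± 0.16 (0.15 without replicate 4), a call lost without replicate 1 or 2, and Tank stood at 0.29 ± 0.03 (limma adjusted p = 0.00121).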

How the data were processed

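Cy3 (unstimulated) and Cy5 (IL-18) signals of 4 arrays were used, paired within an array, as the series' design text states. The deposited intensity values are spot means and local backgrounds from the authors' Agilent Feature Extraction 9.1, per the file headers, with no correction. The deposited log10 ratios were background-subtracted and dye-normalized by the authors' software, per the file headers. They served as alternatives.

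Background was corrected with limma 3.58.1 (R 4.3.3), normexp with an offset of 50. Log2 ratios were computed here from the deposited intensities with loess within arrays, without outlier spots. On array 1 a few gene spots with local backgrounds up to 32441.5 units drove the fitted Cy3 background to -380.8, against 26.3 to 32.0 on the others. Spots with a local background over 5 times the array's median (10 in all, 7 on array 1) were therefore left out, which gave 29.4 on array 1. This departs from the planned processing. It was decided after the members' values had been seen, and the fit on all spots is given as an alternative.

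A probe was tested if well above background in 1 channel on at least 3 of 4 arrays (24104 probes, 16970 genes, a gene being its brightest probe). Means were tested with lmFit and eBayes, two-sided, Benjamini-Hochberg adjusted over all tested probes, at 0.05. The number of arrays limits the precision. On simulated arrays 20% of probes changed by 0.25, 80% by 0.5 and 96% by 1 were recovered, and 8 of 23904 unchanged probes were called. Only 50 probes were changed at each size there, while 11605 of 24104 were called on the real arrays. The adjusted threshold was therefore stricter in the simulation, and its rates do not carry over to the calls above.

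The members and gene lists were chosen with earlier results of these data known. Named are all member probes, the 2 largest called rises and falls of each list, the 3 nearest genes of each member, and always Il6, Il1b, Nfkbiz, Tnf, Il3 and Elavl1. A gene that this rule picks is not reported here. Cnot1, Csf2, Ptgs2, Cxcl2, Rc3h2, Zc3h12d and Zfp36l3 were added after values were seen. Gene names are the array's, updated through a RefSeq table where the accession matched (11107 of the tested genes). Probe and protein sequences were not used here. Promoters are from RefSeq, GRCm38.p6.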

Additional observations from a re-analysis of the deposited data

Results flagged for a closer look

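The values of 4 genes on the array of replicate 4 stood apart from those of the other 3 replicates, by a gap that exceeded Dixon's critical value for a group of 4. Tial1 had a log2 ratio of 0.61 there, against 0.16 to 0.22 on the others. Parn was at -0.81, against -0.22 to -0.16. Skiv2l was at -1.28, against -0.93 to -0.87. Mapkapk2 was at -1.26, against -0.75 to -0.68. No series of the 7 member probes (21 were examined) was among them, and 47 named genes were examined. By chance about 1 in 20 of all series examined would exceed that value, so flags among so many series are of the kind chance gives. The cause was not tested.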

How the results depend on the processing

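Leaving out 1 replicate gave log2 ratios of 1.68 to 1.76 for Zc3h12a, 0.52 to 0.61 for Zc3h12c, 0.24 to 0.31 for Zfp36, -0.0046 to 0.14 for Zfp36l1 and -0.44 to -0.40 for Zfp36l2. It gave 5057 (without replicate 2) to 8410 genes called, against 7955, 7556 to 12177 probes, against 11605, and 49 to 79 list genes, against 70. Within slide 2 the counts were 3277, 5104 and 44. Within slide 1 Zfp36l1 stood at -0.060 and its other probe at -0.024, Cox7c at -0.079, Frmd4a at -0.065 and Myc at -0.065. Leaving out 1 replicate moved the last 3 between -0.034 and 0.12, -0.0096 and 0.13, and -0.00079 and 0.15, each below 0 without replicate 4.

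Median centring gave 13151 genes (12487 higher, against 4450 of 7955), 18049 probes (16547 higher, against 5800 of 11605) and 106 list genes (102 higher, against 35 of 70), with 2.14, 0.88, 0.64, 0.80 and -0.025 for Zc3h12a, Zc3h12c, Zfp36, Zfp36l1 and Zfp36l2. With an offset of 16 added, an alternative chosen after seeing the data, these were 12677 genes (11562 higher) and 17442 probes (15053 higher), and 2.27, 0.90, 0.60, 0.62 and -0.18, the last still called. Genes turned above 0 by median centring, and their values there and with the offset of 16, were Arid5a (0.22, 0.043), Calcrl (0.61, 0.42), Cnot6l (0.49, 0.30), Cnot8 (0.33, 0.15), Dnpep (0.43, 0.24), Edc4 (0.20, 0.018), Elavl1 (0.61, 0.42), Exosc2 (0.42, 0.23), Khsrp (0.29, 0.096), Pabpc1 (0.85, 0.66), Parn (0.24, 0.060) and Upf1 (0.20, 0.025). By median centring alone Limk2 (0.12) and Syt6 (0.00049) turned too.

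The scanner software gave 2.34, 0.85, 0.41 and -0.50 for Zc3h12a, Zc3h12c, Zfp36 and Zfp36l2, and the deposited series table the same to 2 decimals (2.34, 0.85, 0.41, -0.50). Offset 16 alone gave Zc3h12a 1.98. The background fitted on all spots, also chosen after seeing the data, gave 1.49 for Zc3h12a, -0.35 for Zfp36l2 and 5664 genes called. The other Zfp36 probe gave 0.12, and 0.94 in the scanner software's ratios. With no replicate block, the channels as 8 separate samples instead of pairs, 5466 genes, 8233 probes and 55 list genes were called, and the members' calls were those of the paired fit. The cause of these shifts was not tested. In the unstimulated channel the Zc3h12a spot stood 58.5 to 96.8 units and the other Zfp36 spot 7.2 to 11.5 units over background, which limits their ratios.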
